A study of Homo sapiens with 11 samples.

Results

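The 10 genes described here encode enzymes of the glutathione and thioredoxin systems: GCLC, GCLM, GSS, GSR, GPX2, GPX4, TXN, TXNRD1, SRXN1 and PRDX1. They were picked by symbol from the 61464 rows of a table of raw read counts, and each symbol matched 1 Ensembl ID. The RNA was from cells of HCT116, a long-established line of human colorectal carcinoma, whose labels give a ras mutation, an epithelial cell type and batch 1. The cells had been treated for 48 h with a Ganoderma triterpenoid extract, GTEA1 or GTEA7, and the controls had received DMSO, the solvent. There were 3 DMSO, 4 GTEA1 and 4 GTEA7 libraries of poly(A)-selected RNA. Both extracts are code-named mixtures, and the labels used here give no dose. All groups share the 1 cell line, so nothing below extends to other colon cells. Nothing in the labels says that replicates were separate cultures, and p-values therefore measure only the spread between these libraries.

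Glutathione is a cysteine-containing tripeptide that cells keep at high concentration as a reducing agent. Glutamate-cysteine ligase, made of the catalytic subunit GCLC and the modifier subunit GCLM, joins glutamate to cysteine, and GSS adds glycine. Glutathione peroxidases such as GPX2 and GPX4 spend glutathione to reduce peroxides, and GSR regenerates it with NADPH. The thioredoxin branch runs in parallel: TXNRD1 reduces TXN with NADPH, TXN reduces the peroxiredoxin PRDX1, and SRXN1 repairs peroxiredoxins whose cysteine has been overoxidised. GPX2, GPX4 and TXNRD1 are selenoproteins. Several of these genes are textbook targets of the transcription factor NRF2, which binds antioxidant response elements in DNA as a partner of small MAF proteins.

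The promoters of 3 of the genes are printed because each holds the core of such an element, TGACNNNGC, within 250 bases before a RefSeq transcription start (assembly GRCh38.p14). The motif was searched on both strands, and capitals mark the match. It was read as TGACTAAGC in GCLM, as TGACTTCGC and TGACAAAGC at separate starts of TXNRD1, and as TGACTTAGC in GPX2. All but TGACTTCGC lie on the opposite strand and so appear as the reverse complement.

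GCLM, chr1:93909431-93909509, minus strand: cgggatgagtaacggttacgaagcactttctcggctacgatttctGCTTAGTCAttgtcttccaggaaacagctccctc
TXNRD1, chr12:104215635-104215733, plus strand: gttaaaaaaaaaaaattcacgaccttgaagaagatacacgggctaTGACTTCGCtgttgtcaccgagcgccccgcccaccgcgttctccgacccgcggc
TXNRD1, chr12:104286885-104286983, plus strand: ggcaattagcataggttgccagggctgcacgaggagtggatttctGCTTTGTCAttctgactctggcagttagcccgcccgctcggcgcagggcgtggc
GPX2, chr14:64942814-64942912, minus strand: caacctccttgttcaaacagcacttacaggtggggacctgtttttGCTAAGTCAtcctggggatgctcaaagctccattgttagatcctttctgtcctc

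The matches end 25 bases before the start in GCLM, 90 and 93 bases before the 2 starts of TXNRD1 and 113 bases before the start of GPX2. None overlaps the AP-1 motif TGANTCA. Among all 35116 promoters of that table, 10.9% hold TGACNNNGC in the same 250 bases, against 4 of the 10 promoters listed for 7 of the genes. The promoters of GCLC, GPX4, SRXN1 and TXN did not hold these letters in the window, and elements farther away were not searched. A match is a description of letters and not a binding site.

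Total counts ranged from 13742326 to 19304211 per library. The levels below are CPM, read counts scaled to a common library size with TMM factors for library composition, with SDs, and log2 fold changes are given with standard errors. In bulk RNA, a change in the number of expressing cells and a change in RNA per cell cannot be told apart. The summed CPM of 6 epithelial markers was 2240 to 2390 in DMSO, 2780 to 2900 in GTEA1 and 2240 to 2340 in GTEA7. Of these markers, 4 were higher with GTEA1 than in DMSO, KRT19 by the most CPM (means 1030 and 452). KRT8 (972 and 1160) and KRT18 (265 and 320) were lower, so the sum does not measure the amount of epithelial cells. Fibroblast markers summed to 36.8 to 55.4 over all libraries, with 2 of 6 tested. Most of that was COL1A1, with means of 51.8 CPM in DMSO, 40.8 in GTEA1 and 39.6 in GTEA7. Markers of immune cells summed to at most 1.24, with none of 6 tested, and those of endothelial cells to at most 4.34. Mitochondrially encoded genes took 13.3% to 15.1% of counts in DMSO, 12.5% to 13.6% in GTEA1 and 15.0% to 15.3% in GTEA7. Rows without an Ensembl ID took 0.525% to 0.577% in DMSO, 1.02% to 1.1% in GTEA1 and 0.517% to 0.577% in GTEA7. Their part in the results was not tested.

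Of the 10 genes, 9 had enough counts to be tested and GPX2 did not. With GTEA1, 8 of the 9 rose against DMSO and 0 fell, where 71.8% of all 17963 tested genes passed, 35.6% as higher and 36.2% as lower. With GTEA7, 7 of the 9 rose and 0 fell, where 22.5% of all tested genes passed, 12.0% as higher and 10.4% as lower. The CPM ranges of DMSO and extract did not overlap for 8 of the 9 with GTEA1 and for 9 of the 9 with GTEA7, against 68.7% and 30.5% of all tested genes. The median log2 fold change of the 9 genes was 1.24 for GTEA1 and 0.43 for GTEA7, and over all tested genes it was -0.01 for each. Both comparisons use the same DMSO libraries, so their values are set side by side and not counted as independent. The 10 genes were chosen with earlier results of these data known. Their counts and medians, here and between the extracts below, are therefore a description and no test of the set. Together the 10 genes held 0.149% to 0.152% of all counts in DMSO, 0.332% to 0.348% in GTEA1 and 0.189% to 0.197% in GTEA7.

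**Figure D1:**
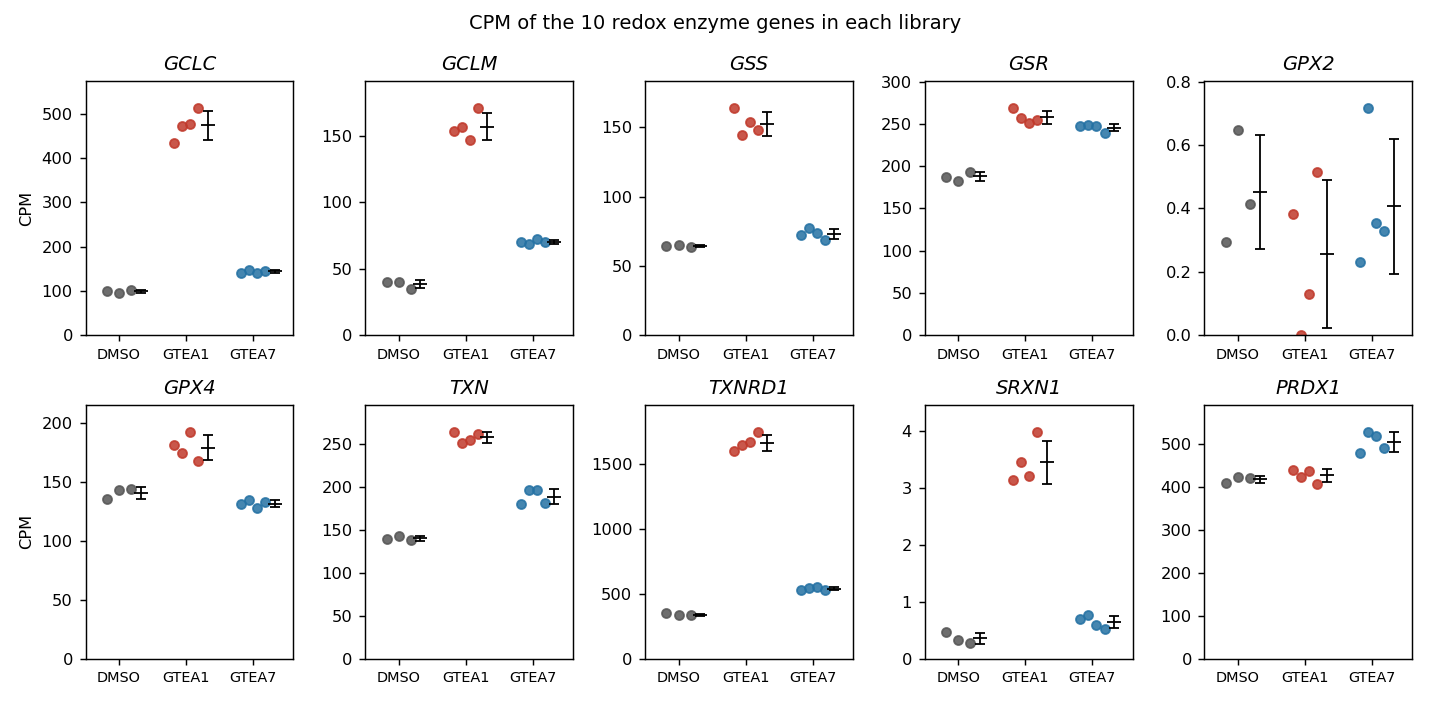
CPM of each of the 10 genes (y axis, linear from 0) in 3 DMSO, 4 GTEA1 and 4 GTEA7 libraries (x axis). Points are libraries and black marks are means ± SD. GTEA1 libraries lie above DMSO for 8 genes, PRDX1 is highest in GTEA7, and GPX2 stays below 1 CPM throughout.

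The steps of glutathione synthesis rose with both extracts. GCLC (ENSG00000001084) was at 100.2, 95.8 and 101.2 CPM in the DMSO libraries, at 434, 472, 476 and 513 in GTEA1 and at 141, 148, 140 and 146 in GTEA7. The 3 groups did not overlap, with GTEA1 far above GTEA7 and GTEA7 above DMSO. The rise was 4.79-fold with GTEA1 (log2 fold change 2.26 ± 0.04, adjusted p = 3e-40) and 1.45-fold with GTEA7 (0.54 ± 0.04, adjusted p = 4.1e-14).

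GCLM (ENSG00000023909), the modifier subunit, was at 40.2, 40.3 and 34.9 CPM in DMSO, at 153, 156, 147 and 171 in GTEA1 and at 70.1, 68.7, 72.0 and 70.3 in GTEA7. Its groups kept apart in the same order. GTEA1 raised it 4.06-fold (2.02 ± 0.05, adjusted p = 8.6e-36). GTEA7 raised it 1.82-fold (0.86 ± 0.05, adjusted p = 2e-18), and only 0.724% of all tested genes had a larger log2 fold change with GTEA7. For GTEA1 that share was 2.1%.

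Relative to each other, the subunits moved unequally. Per kb of median transcript length, the level of GCLM was 0.386 ± 0.039 of that of GCLC over the 3 DMSO libraries. With GTEA1 it was 0.329 ± 0.018 and with GTEA7 0.485 ± 0.02, over 4 libraries each. All 4 GTEA7 libraries (0.461 to 0.509) lay above every DMSO library (0.342 to 0.417), whereas GTEA1 (0.306 to 0.35) overlapped DMSO. Such ratios are within a library and do not depend on how libraries are scaled. They were chosen after the values had been seen and carry no test.

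GSS (ENSG00000100983), the enzyme of the last step, was at 64.6, 64.9 and 63.6 CPM in DMSO, at 164, 145, 154 and 148 in GTEA1 and at 72.2, 77.4, 74.1 and 68.8 in GTEA7. GTEA1 raised it 2.37-fold (1.24 ± 0.04, adjusted p = 4.7e-30). The rise with GTEA7 was 1.14-fold (0.19 ± 0.05, adjusted p = 0.0019), the smallest called among the 9 genes, although no GTEA7 library reached down to DMSO. Synthesis thus shared a direction across its 3 genes with unlike sizes.

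Recycling changed less than synthesis with GTEA1. GSR (ENSG00000104687), glutathione reductase, was at 187, 182 and 194 CPM in DMSO, at 268, 257, 252 and 254 in GTEA1 and at 247, 248, 247 and 239 in GTEA7. It rose 1.37-fold with GTEA1 (0.46 ± 0.03, adjusted p = 1.6e-16) and 1.31-fold with GTEA7 (0.39 ± 0.03, adjusted p = 1.2e-12). Of all tested genes, 23.7% had a larger log2 fold change with GTEA1 and 4.64% with GTEA7. The extracts were nearly level: GTEA7 against GTEA1 gave -0.07 ± 0.03 (adjusted p = 0.043), a call that turned to 0.04 (adjusted p = 0.3) with library size as the only scaling. It was lost without GTEA1 replicate 1 or 2 (adjusted p = 0.17 and 0.071) and without GTEA7 replicate 1, 2, 3 or 4 (adjusted p = 0.055, 0.058, 0.081 and 0.18). The level of GSR per kb relative to GSS was 2.42 ± 0.097 under DMSO. It was 1.41 ± 0.056 with GTEA1 and 2.79 ± 0.098 with GTEA7. GTEA1 (1.36 to 1.48) was the lowest and GTEA7 (2.66 to 2.88) the highest, without overlap.

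**Figure D2:**
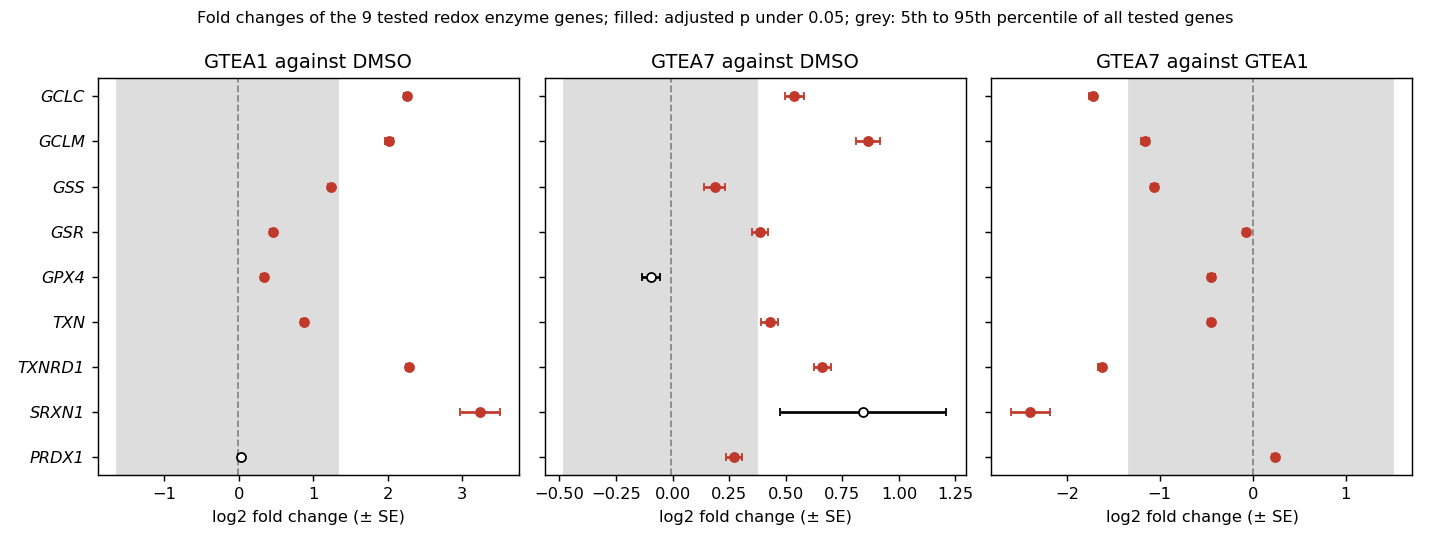
Log2 fold change ± SE (x axis, scale differs by panel) of the 9 tested genes (y axis) in the 3 comparisons. Filled points passed at adjusted p under 0.05, the dashed line is the median of all tested genes, and the grey band spans their percentiles 5 to 95. With GTEA1, GCLC, GCLM, TXNRD1 and SRXN1 lie beyond 1.34, the upper edge of the band. GSS, GSR, GPX4, TXN and PRDX1 lie inside it there.

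The glutathione peroxidases did not follow the synthesis genes in size. GPX4 (ENSG00000167468), which reduces lipid hydroperoxides in membranes and is known as a brake on ferroptosis, was at 135, 143 and 144 CPM in DMSO. It was at 181, 175, 192 and 167 CPM in GTEA1, above every DMSO library, and at 131, 134, 128 and 133 in GTEA7, below every one. It rose 1.27-fold with GTEA1 (0.35 ± 0.04, adjusted p = 6.3e-11), where 29.3% of all tested genes had a larger log2 fold change. With GTEA7 GPX4 was at -0.10 ± 0.04 and did not pass (adjusted p = 0.072). It passed as lower there without DMSO replicate 1 (-0.13, adjusted p = 0.039), when GTEA1 was left out of the fit (-0.10, adjusted p = 0.03) and with library size only (-0.15, adjusted p = 0.0042). Over the 15 alternatives its adjusted p ranged from 0.0042 to 0.24.

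GPX2 (ENSG00000176153), the gastrointestinal peroxidase, was nearly undetected. It had 5, 12 and 6 counts in the DMSO libraries, 5, 0, 2 and 8 in GTEA1 and 4, 14, 6 and 5 in GTEA7. The highest level was 0.717 CPM, and the library with 0 counts allows up to 0.22 CPM (3 counts, counting error only). All groups overlapped. Without a low-count filter the log2 fold changes were -0.79 ± 0.50 with GTEA1 (adjusted p = 0.25) and -0.12 ± 0.43 with GTEA7 (adjusted p = 0.96), so no change was detectable at this depth. The match to TGACNNNGC printed above for GPX2 lies in the promoter of a gene that was below 1 CPM in every library.

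In the thioredoxin branch the reductase moved most among the well-counted genes. TXNRD1 (ENSG00000198431) was at 349, 334 and 339 CPM in DMSO, at 1598, 1643, 1668 and 1747 in GTEA1 and at 531, 542, 554 and 528 in GTEA7. The groups lay far apart. GTEA1 raised it 4.89-fold (2.29 ± 0.04, adjusted p = 1.7e-44) and GTEA7 1.58-fold (0.66 ± 0.04, adjusted p = 1.1e-20). It made up 23.4% to 24.5% of the summed CPM of the 10 genes in DMSO, 45.6% to 47.6% in GTEA1 and 27.9% to 28.7% in GTEA7. These are shares of counts, not corrected for transcript length.

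TXN (ENSG00000136810), its substrate, was at 139, 143 and 138 CPM in DMSO, at 264, 251, 254 and 262 in GTEA1 and at 181, 196, 196 and 181 in GTEA7. The order of the groups was that of TXNRD1, with smaller steps. TXN rose 1.84-fold with GTEA1 (0.88 ± 0.04, adjusted p = 1.3e-26) and 1.35-fold with GTEA7 (0.43 ± 0.04, adjusted p = 3.4e-13). The ratio of TXNRD1 to TXN per kb was 1.17 ± 0.042 under DMSO. It was 3.12 ± 0.13 with GTEA1 and 1.38 ± 0.04 with GTEA7, and the groups did not overlap. With the longest transcripts these means were 0.494, 1.31 and 0.581, so whether the ratio lies above 1 depends on the length. The 7 TXN pseudogenes named in the table had at most 68 counts each over the 11 libraries, against 34882 for TXN.

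**Figure D3:**
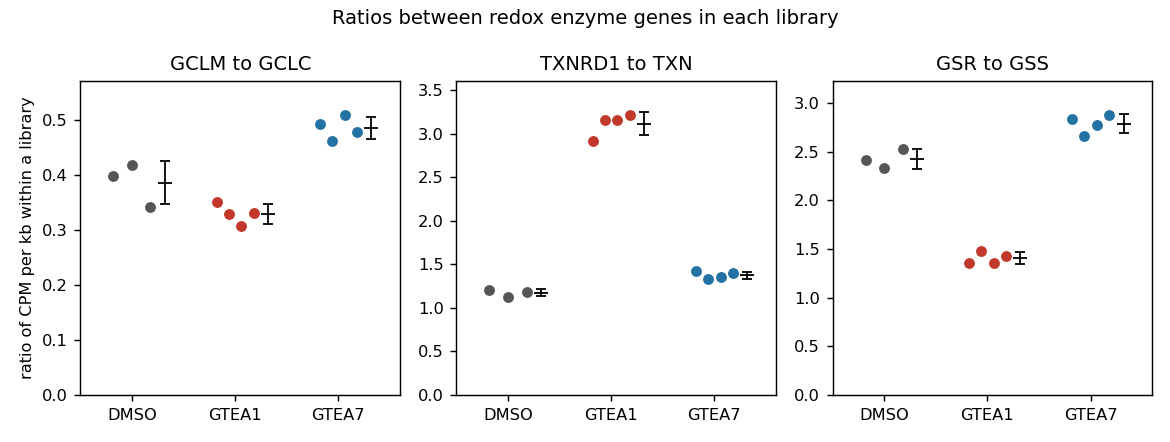
Ratio of 2 genes' CPM per kb of median transcript length within a library (y axis, linear from 0), for 3 DMSO, 4 GTEA1 and 4 GTEA7 libraries. Points are libraries and black marks are means ± SD. TXNRD1 to TXN was highest in GTEA1 at 3.12, GSR to GSS was lowest there at 1.41, and GCLM to GCLC was highest in GTEA7 at 0.485. The level of each ratio depends on the transcript length used.

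PRDX1 (ENSG00000117450), the peroxiredoxin that TXN serves, was the exception to the pattern. It was at 408, 423 and 420 CPM in DMSO, at 440, 422, 437 and 406 in GTEA1 and at 478, 528, 518 and 490 in GTEA7. GTEA1 overlapped DMSO, and every GTEA7 library lay above all others. With GTEA1 the log2 fold change was 0.03 ± 0.04 (adjusted p = 0.45). It became -0.13 (adjusted p = 0.0013) with library size as the only scaling, under which the median of all genes was -0.17. With GTEA7 PRDX1 rose 1.21-fold (0.27 ± 0.04, adjusted p = 7.1e-08).

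SRXN1 (ENSG00000271303), sulfiredoxin, had 8, 6 and 4 counts in the DMSO libraries, 41, 47, 49 and 62 in GTEA1 and 12, 15, 10 and 8 in GTEA7. In CPM these were 0.276 to 0.47 in DMSO, 3.15 to 3.98 in GTEA1 and 0.526 to 0.768 in GTEA7, with no overlap. Its fold change with GTEA1 was the largest of the 9, 9.43-fold (3.24 ± 0.27, adjusted p = 1.6e-15), and it rests on 18 counts over the DMSO group. With GTEA7 it was at 0.84 ± 0.37 and did not pass (adjusted p = 0.096, with a range of 0.077 to 0.25 over the alternatives that gave one).

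Counts of 3 of the genes may be shared with overlapping genes. In GENCODE v29, which may not be the annotation that was used for counting, 85% of the 2698 exon bases of SRXN1 also lie in exons of ENSG00000270299, a coding gene on the same strand with 29 counts in all. The level of SRXN1 is therefore uncertain and is left out of the comparison of levels below. Its fold changes and pattern, which are given below, rest on the same counts. Of the exon bases of PRDX1, 24.9% are shared with MMACHC on the opposite strand, which had 2379 counts in all against 80200 for PRDX1. For GCLC, with 42219 counts, the share was 6.12% with the noncoding gene ENSG00000231683 on the same strand, which had 310 counts and rose with GTEA1 (2.93, adjusted p = 1.6e-13) and GTEA7 (2.00, adjusted p = 1.7e-06). The antisense gene GCLC-AS1, with 284 counts, shared 0.081% and rose with GTEA1 (2.45, adjusted p = 2.5e-12). How the counting treated strand and overlaps is not stated in the labels.

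Levels can be compared between genes only per length, here CPM per kb of median transcript length. In DMSO the order was PRDX1 (594 ± 12), TXNRD1 (259 ± 6), TXN (220 ± 3.9), GPX4 (175 ± 6.1), GSR (130 ± 3.9), GCLC (55 ± 1.6), GSS (53.6 ± 0.54), GCLM (21.2 ± 1.7) and GPX2 (0.456 ± 0.18), as means ± SD of 3 libraries. The ranges of GCLC and GSS overlapped, and those of the other neighbours did not. In GTEA1, TXNRD1 (1260 ± 47) came first, ahead of PRDX1 (607 ± 22) and TXN (406 ± 9.7), and GCLC (263 ± 18) passed GPX4 (223 ± 13) and GSR (178 ± 5.1). In GTEA7 PRDX1 (717 ± 33) again led TXNRD1 (409 ± 8.9), and GSR (170 ± 3) and GPX4 (164 ± 3.4) overlapped. These orders depend on the length used. With the longest transcript TXNRD1 stood behind TXN (161 ± 2.9) and GPX4 (119 ± 4.1) in DMSO, at 79.6 ± 1.8, and still first in GTEA1 (389 ± 15, against 345 ± 12 for PRDX1). By that length GPX4 (151 ± 9) stood above GCLC (124 ± 8.4) in GTEA1. In GTEA7, TXN (217 ± 10) then stood above TXNRD1 (126 ± 2.7), and GPX4 (111 ± 2.3) above GSR (76.8 ± 1.4) without overlap.

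The direct comparison of the extracts asked where they differed, and it was taken from the same fit of all 11 libraries. GTEA7 was lower than GTEA1 for 8 of the 9 genes and higher for 1, PRDX1, where 72.7% of all tested genes passed, 36.4% as lower and 36.2% as higher. The CPM ranges of the extracts did not overlap for 9 of the 9 genes and for 65.3% of all tested genes. The median over the 9 was -1.06, and over all tested genes it was 0. The largest gaps were in SRXN1 (-2.40 ± 0.21, adjusted p = 1.5e-14), GCLC (-1.72 ± 0.04, adjusted p = 6e-38) and TXNRD1 (-1.63 ± 0.03, adjusted p = 8.8e-41). GCLM (-1.16 ± 0.04, adjusted p = 4.7e-29) and GSS (-1.06 ± 0.04, adjusted p = 3.8e-29) followed. TXN (-0.45 ± 0.03, adjusted p = 5.2e-17) and GPX4 (-0.44 ± 0.04, adjusted p = 1.8e-15) were lower by less. PRDX1 was higher with GTEA7 (0.24 ± 0.03, adjusted p = 1.1e-08), and GSR was the call that did not hold, as given above.

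Likeness of pattern was measured as the root mean square distance between centred log2(CPM + 0.1) over the 11 libraries, among 9829 tested genes of at least 10 CPM (9830 for SRXN1). The closest genes to GCLC were ANKRD29 and TXNRD1. The closest genes to GCLM were UNC13A and ACSS2, to GSS CYSTM1 and SHC1, and to GSR HTR7 and ADIPOR2. WDR19 was among the 2 closest to GPX4. IDH1 and SSR3 were closest to TXN, and ANKRD29 and GCLC to TXNRD1. FTL and KRT15 were closest to SRXN1, and GFM1 and EIF2S1 to PRDX1. GCLC and TXNRD1 lay 0.066 apart, each among the 2 nearest of the other. The distances ranged from 0.0259 for GFM1 to 0.242 for KRT15. All of these patterns include the GTEA1 libraries, which differed from DMSO in the 71.8% of tested genes given above.

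The genes around this core were followed in lists that were chosen with earlier results of these data known. Their counts are a description and carry no test. The shares to set beside them are those of all tested genes. With GTEA1, 35.6% of these were higher and 36.2% lower, and with GTEA7 12.0% and 10.4%. Cysteine supply and glutathione turnover had 13 tested genes: 8 rose and 3 fell with GTEA1 (median 1.08), and 4 rose and 0 fell with GTEA7 (median 0.08). SLC7A11, the cystine importer, stood at 46.2 ± 1.2 CPM under DMSO. GTEA1 took it to 529 ± 31 (3.52 ± 0.05, adjusted p = 9.6e-49) and GTEA7 to 119 ± 4.1 (1.36 ± 0.05, adjusted p = 8.5e-29). Its partner SLC3A2 rose by 2.23 ± 0.04 and 0.28 ± 0.04 on the log2 scale. CTH, which makes cysteine from cystathionine, rose by 1.26 ± 0.07 and 0.21 ± 0.08, and OPLAH, which returns oxoproline to glutamate, rose with both (adjusted p = 5.7e-18 and 0.0012). With GTEA7 the call of CTH (adjusted p = 0.044) was lost with library size only (adjusted p = 0.15), limma-voom (0.057) and DESeq2 (0.061), and without DMSO replicate 1 or 3 or GTEA7 replicate 1, 3 or 4 (adjusted p 0.053 to 0.3).

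Within the same list CHAC1, which cleaves glutathione, was at 1.17 ± 0.36 CPM in DMSO, 49 ± 2.9 in GTEA1 (5.34 ± 0.12, adjusted p = 1.2e-38) and 1.43 ± 0.39 in GTEA7 (0.23 ± 0.24, adjusted p = 0.55). GTEA7 against GTEA1 gave -5.11 ± 0.10 for it (adjusted p = 1.1e-40). The 3 genes that fell with GTEA1 were its paralog CHAC2 (-0.90 ± 0.12), GGT5 (-2.60 ± 0.40) and the aminopeptidase LAP3 (-0.72 ± 0.05). Of the 8 that rose, the 3 not yet named, chosen after their values were seen, were the aminopeptidase ANPEP (2.29 ± 0.46), and GGT1 (1.08 ± 0.27) and GGT7 (0.22 ± 0.07) of the gamma-glutamyltransferase family. ANPEP, GGT1 and GGT5 had low levels, with means of 0.198, 0.763 and 1.22 CPM in DMSO and 0.988, 1.64 and 0.186 CPM in GTEA1. GGT7 lost its call with library size only (0.07, adjusted p = 0.46) and without GTEA1 replicate 1 (adjusted p = 0.063). CHAC1 is a known target of the ATF4 and CHOP stress pathway.

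Other peroxidases moved in both directions. Of 3 tested glutathione peroxidases outside the 10, GPX8, which resides in the endoplasmic reticulum, rose with GTEA1 (0.77 ± 0.05), and GPX1 (-0.28 ± 0.05) and GPX3 (-2.66 ± 0.33) fell. GPX3 had a low level, 1.58 ± 0.047 CPM in DMSO and 0.245 ± 0.05 CPM in GTEA1. With GTEA7 GPX1, the abundant cytosolic peroxidase, fell from 67.5 ± 2.7 to 44.6 ± 2 CPM (-0.60 ± 0.05, adjusted p = 4.8e-14). Of the 5 other peroxiredoxins, PRDX5 rose with GTEA1 (0.56 ± 0.04) and PRDX2 (-1.33 ± 0.05), PRDX3 (-0.26 ± 0.04), PRDX4 (-0.16 ± 0.05) and PRDX6 (-0.19 ± 0.04) fell. With GTEA7 PRDX3 (0.15 ± 0.04), PRDX4 (0.18 ± 0.05), PRDX5 (0.12 ± 0.04) and PRDX6 (0.13 ± 0.04) rose and PRDX2 fell (-0.19 ± 0.05). With library size only, the GTEA7 calls of PRDX4, PRDX5 and PRDX6 were lost (0.12, 0.07 and 0.08). PRDX4 also lost it without DMSO replicate 1 (adjusted p = 0.057), and PRDX5 without DMSO replicate 1 or 3 or GTEA7 replicate 2 (adjusted p = 0.13, 0.051 and 0.081).

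Of 10 other thioredoxin and glutaredoxin genes tested, 3 rose and 5 fell with GTEA1 (median -0.10). TXNL1 (0.34 ± 0.04), the mitochondrial thioredoxin TXN2 (0.20 ± 0.05) and GLRX (0.20 ± 0.06) rose, the last 2 not with library size only (0.04 each). TXNDC17 (-0.57 ± 0.07), NXN (-0.34 ± 0.04), TXNRD3 (-0.24 ± 0.07), GLRX2 (-0.23 ± 0.07) and GLRX5 (-0.15 ± 0.05) fell. With GTEA7, TXNL1 (0.18 ± 0.04), GLRX2 (0.23 ± 0.07), GLRX3 (0.16 ± 0.05) and GLRX5 (0.19 ± 0.05) rose and GLRX fell (-0.30 ± 0.06). The rises of GLRX3 and GLRX5 were lost with library size only, and that of GLRX3 also without DMSO replicate 1 or GTEA7 replicate 3 (adjusted p = 0.23 and 0.14). The fall of GLRX5 with GTEA1 was lost without DMSO replicate 3 or GTEA1 replicate 2 (adjusted p = 0.054 and 0.074). TXNIP, the inhibitor of thioredoxin, had 4 counts over the 11 libraries and was not tested.

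Glutathione S-transferases, which conjugate glutathione to electrophiles, mostly fell with GTEA1: 1 of 15 tested rose and 10 fell (median -0.23). MGST1, a microsomal transferase that also acts on lipid peroxides, was the one that rose (0.88 ± 0.05, adjusted p = 2.8e-22). GSTP1 (-0.28 ± 0.07) and GSTA4 (-1.13 ± 0.16) fell. With GTEA7, MGST1 (0.52 ± 0.05) and GSTO1 (0.16 ± 0.05, lost with library size only) rose and 0 fell, where library size only gave 1 and 1. GSTP1 was at 0.16 ± 0.07 with GTEA7 (adjusted p = 0.14), and passed as higher with no low-count filter (adjusted p = 0.00023), with GTEA1 left out of the fit (0.0026) and without GTEA7 replicate 4 (0.024). The GTEA7 call of GSTO1 was also lost without DMSO replicate 3 or GTEA7 replicate 2 (adjusted p = 0.09 and 0.077). Of the 4 tested superoxide dismutase, copper chaperone and catalase genes, CCS rose with GTEA1 (0.49 ± 0.07) and SOD1 (-0.53 ± 0.04), SOD2 (-0.41 ± 0.04) and CAT (-0.53 ± 0.04) fell. With GTEA7, SOD1 (0.19 ± 0.04) and SOD2 (0.12 ± 0.04, lost with library size only) rose, CCS fell (-0.31 ± 0.07), and CAT was at 0.00 ± 0.04 (adjusted p = 0.97). The call of SOD2 there was also lost without DMSO replicate 2 or 3 or GTEA7 replicate 1 or 3 (adjusted p 0.071 to 0.1), and that of CCS without DMSO replicate 2 (adjusted p = 0.057).

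Genes listed for NADPH supply rose with both extracts more often than they fell, and NADPH is the reductant of GSR and TXNRD1. The list also holds genes such as TKT, TALDO1 and NADK, so it is wider than the enzymes that form NADPH. Of 14 tested, 9 rose and 3 fell with GTEA1 (median 0.46), and 9 rose and 0 fell with GTEA7 (median 0.17). Library size only gave 7 and 3 with GTEA1 and 7 and 0 with GTEA7. ME1, cytosolic malic enzyme, rose by 1.31 ± 0.04 and 0.81 ± 0.04 on the log2 scale, and IDH1, cytosolic isocitrate dehydrogenase, by 0.90 ± 0.04 and 0.48 ± 0.04. MTHFD2, a mitochondrial folate enzyme, rose by 1.65 ± 0.04 and 0.18 ± 0.04. TALDO1 (-0.55 ± 0.04), MTHFD1 (-0.53 ± 0.04) and IDH2 (-0.28 ± 0.05) fell with GTEA1.

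**Figure D4:**
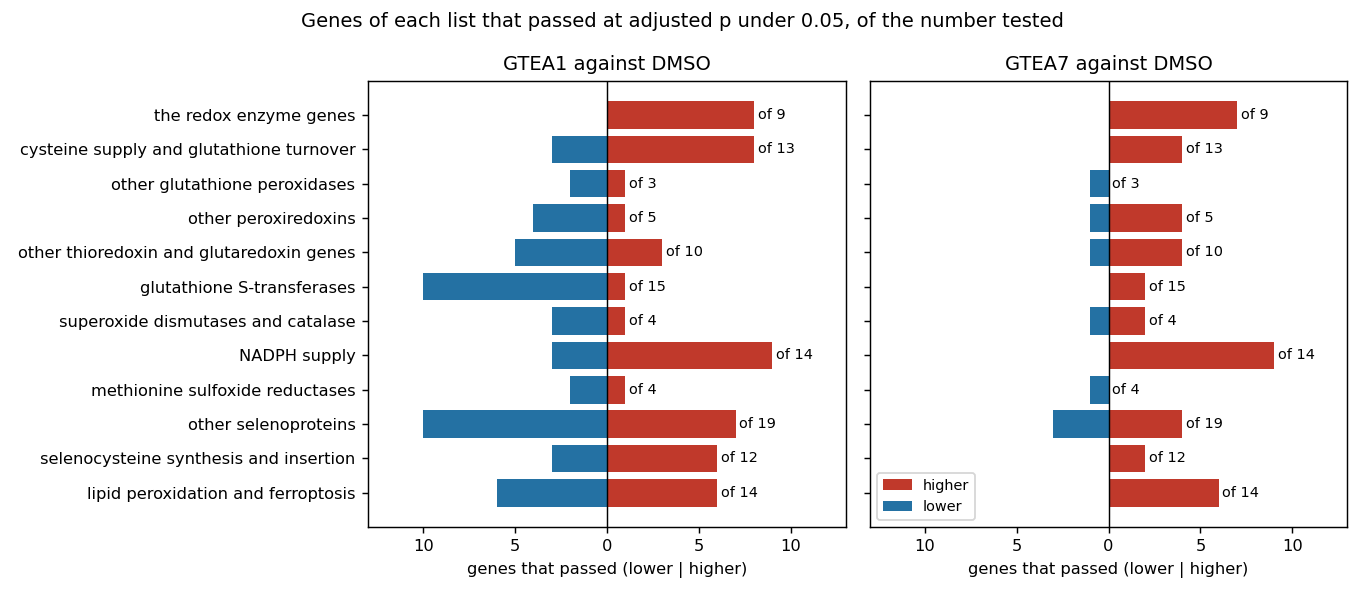
Number of genes in each list (y axis) that were higher (red, to the right) or lower (blue, to the left) than in DMSO at adjusted p under 0.05, with the number tested beside the bar. The 9 tested redox enzyme genes, cysteine supply and NADPH supply lean to the right with GTEA1, and glutathione S-transferases lean to the left with 10 of 15 lower. Of all tested genes, 35.6% were higher and 36.2% lower with GTEA1, and 12.0% and 10.4% with GTEA7. Some genes stand in more than 1 list.

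Selenoproteins other than GPX2, GPX4 and TXNRD1 moved in both directions. Of 19 tested, 7 rose and 10 fell with GTEA1 (median -0.24), and 4 rose and 3 fell with GTEA7 (median 0.04), where library size only gave 2 and 3. Among all tested genes, 35.6% rose and 36.2% fell with GTEA1, and 12.0% and 10.4% with GTEA7. GPX1, GPX3, TXNRD2, TXNRD3, MSRB1 and SEPHS2 also stand in other lists here, so the counts of the lists overlap. With GTEA1, SELENOS (0.83 ± 0.05), SEPHS2 (0.78 ± 0.04) and SELENOI (0.56 ± 0.04) rose and SELENON (-0.70 ± 0.05) fell. With GTEA7, SELENOI (0.47 ± 0.04), SELENOF (0.20 ± 0.04), SELENOK (0.18 ± 0.06) and SEPHS2 (0.17 ± 0.05) rose, and GPX1 (-0.60 ± 0.05), SELENOW (-0.28 ± 0.05) and SELENON (-0.24 ± 0.04) fell. SELENOK and SEPHS2 did not pass there with library size only. SELENOK also missed without DMSO replicate 2 or 3 or GTEA7 replicate 2 or 3 (adjusted p 0.065 to 0.12), and SEPHS2 without DMSO replicate 1 (adjusted p = 0.059). Of 12 genes for selenocysteine synthesis and insertion, 6 rose and 3 fell with GTEA1, among them SARS1 (2.10 ± 0.04), the seryl-tRNA synthetase, and LRP8 (0.11 ± 0.04, but -0.05 with library size only). The 3 that fell were SEPHS1 (-0.39 ± 0.05), SECISBP2L (-0.13 ± 0.04) and EEFSEC (-0.32 ± 0.15, adjusted p = 0.049), the last lost without DMSO replicate 2 or 3 or GTEA1 replicate 1, 2 or 3 (adjusted p 0.05 to 0.24). The call of EEFSEC was also lost with DESeq2 size factors (adjusted p = 0.053), no low-count filter (0.074), limma-voom (0.075) and DESeq2 (0.1). With GTEA7, LRP8, a receptor for selenoprotein P, rose (0.48 ± 0.04), beside SEPHS2.

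Of 4 methionine sulfoxide reductases, MSRA rose (1.06 ± 0.16) and MSRB3 (-1.12 ± 0.09) and MSRB1 (-0.45 ± 0.09) fell with GTEA1, and MSRB3 fell with GTEA7 (-0.34 ± 0.08). Of 14 tested lipid peroxidation and ferroptosis genes, 6 rose and 6 fell with GTEA1 (median -0.01), and 6 rose and 0 fell with GTEA7 (median 0.12), where library size only gave 3 and 1. Among all tested genes, 35.6% rose and 36.2% fell with GTEA1, and 12.0% and 10.4% with GTEA7. AIFM2, a ubiquinone reductase that protects against ferroptosis, rose by 1.32 ± 0.06 with GTEA1 and 0.22 ± 0.07 with GTEA7. The oxidoreductase POR rose by 1.48 ± 0.04 and 0.12 ± 0.04. The GTEA7 calls of AIFM2 and POR were lost with library size only, and that of POR with limma-voom (adjusted p = 0.051). That of AIFM2 was also lost without DMSO replicate 3 or GTEA7 replicate 3 (adjusted p = 0.13 and 0.08), and that of POR without DMSO replicate 1, 2 or 3 or GTEA7 replicate 1, 2 or 3 (adjusted p 0.05 to 0.19). ACSL4, which loads polyunsaturated fatty acids into phospholipids, rose by 0.47 ± 0.04 with GTEA7 and by 0.21 ± 0.04 with GTEA1, the latter not with library size only (0.05).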

How the data were processed

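The authors deposited raw counts of reads for each gene, and all 11 libraries entered the analysis. The submitters' processing notes list DESeq 1.10.1, HTSeq 0.5.4, SAMtools 0.1.18, STAR, Picard and GATK with no role. For the genome build, the annotation and the strand setting, the sources used here give nothing. A gene name table gave symbols for 60370 of 60624 Ensembl IDs, and GENCODE v29 gave missing symbols, transcript lengths and exon overlaps.

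Genes were filtered with filterByExpr, scaled with TMM and fitted in 1 model of all libraries with edgeR 4.0.16 (quasi-likelihood, robust) in R 4.3.3. Adjusted p-values are Benjamini-Hochberg values over all 17963 tested genes, with a threshold of 0.05, and standard errors derive from the fold change and its F. The code was tested on simulated data. The members and lists were chosen with earlier results of these data known. Named genes were all members, per list up to 4 with the smallest adjusted p with GTEA1 and up to 3 with GTEA7 among those that passed, the genes behind counts of 5 or fewer, and SLC7A11, CHAC1, TXNIP, GPX1, GSTP1 and ACSL4. Some genes that this rule names are not reported here. The 2 nearest genes per member had a mean of at least 10 CPM. Ratios, exon overlaps, GGT1, GGT7 and ANPEP were added after seeing the data. Alternatives were DESeq2 size factors, library size only, other low-count filters, a replicate block, only the compared groups, limma-voom (limma 3.58.1), DESeq2 1.42.0, and leaving out each library.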

Additional observations from a re-analysis of the deposited data

Results flagged for a closer look

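GSR in GTEA7 replicate 4 stood at 238.8 CPM, away from the other 3 GTEA7 libraries, which lay between 247.1 and 248 CPM. The gap was 0.902 of the range of the group, above Dixon's 95% critical value for 4 libraries. This was 1 of 20 groups of 4 checked for the 10 genes, and chance alone marks about 1 in 20 such groups.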

How the results depend on the processing

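Of 413 recomputed log2 fold changes of the 9 tested genes, 398 kept direction and side of the threshold. With library size as the only scaling, PRDX1 turned to -0.13 with GTEA1, GSR to 0.037 and SELENOI to 0.023 in GTEA7 against GTEA1, and LRP8 to -0.053 with GTEA1. The median of all genes under this scaling was -0.17 with GTEA1, -0.06 with GTEA7 and 0.11 between the extracts. It counted 1 of the 9 genes lower with GTEA1 (PRDX1) and 1 lower with GTEA7 (GPX4). It called 4828 genes higher and 8179 lower with GTEA1 against 6390 and 6505, 1255 and 2954 with GTEA7 against 2159 and 1877, and 7653 and 5455 in GTEA7 against GTEA1 against 6510 and 6546. Only the compared groups in the fit gave 1 gene lower with GTEA7, and leaving out each library gave 0 to 1 there. Beyond the scaling itself, the cause was not tested. GSR in GTEA7 against GTEA1 lost its call in 11 of 16 alternatives. For 73 genes of the lists, 3221 of 3337 recomputed values kept their call. With the replicate number as a replicate block, 8 and 7 of the 9 genes rose with GTEA1 and GTEA7, as without it, and 6268 and 2180 of all genes were higher. Under it 4 glutathione S-transferases rose with GTEA7 instead of 2, GSTP1 among them (adjusted p = 0.00069), and CTH and POR lost their GTEA7 calls (adjusted p = 0.055 and 0.065). The numbers showed no pairing of the samples: deviations of same-numbered libraries correlated at -0.096 to 0.101 over 10 pairs. Of 11 libraries, 1 correlated best with its own number, and libraries with unlike numbers correlated at -0.133 to 0.157. With 3 or 4 libraries per group, a weak pairing could have been missed. By Pearson correlation instead of distance, the 2 nearest genes shared only HTR7 for GSR and GFM1 for PRDX1 with those named. TGANNNNGC, a looser motif held by 35.2% of promoters, matched the same 4 member promoters. Low counts limit GPX2 and SRXN1, and whether the exon overlap of SRXN1 lowered its counts was not tested.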
